A study of Mus musculus with 12 samples.

Results

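The genes described here build and operate cilia, the microtubule-based projections of the cell surface. They were chosen by symbol as the protein-coding genes whose mouse symbol starts with Cfap, Dnah, Dnai, Dnal, Rsph, Tekt, Drc, Ift or Bbs followed by a digit, plus Foxj1. Of 87 annotated genes that meet this rule, 56 have a row among the 13951 genes of the deposited table. They comprise 33 motile axoneme genes (19 Cfap, 3 dynein, 6 Rsph, 2 Tekt and 3 Drc genes), 22 Ift and Bbs genes (14 Ift and 8 Bbs), and Foxj1. All 22 annotated Ift and Bbs genes have a row, against 33 of 64 annotated motile genes. Only 1 of 15 annotated Dnah genes, Dnah9, has a row, and the other motile genes of the rule were not analysed here.

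Motile cilia beat by sliding the doublet microtubules of the axoneme, with dynein arms as motors and radial spokes, the nexin-dynein regulatory complex and tektins as control and support. In the brain they occur as tufts on the ependymal cells that line the ventricles and on the epithelium of the choroid plexus, and FOXJ1 is the transcription factor of the motile cilium programme. Primary cilia are single and immotile, are carried by most neurons and astrocytes, and serve as signalling antennae. Intraflagellar transport (Ift proteins) builds cilia of both kinds, and the BBSome (Bbs proteins) carries membrane proteins within them. Ttr encodes transthyretin, the most characteristic secreted product of the choroid plexus epithelium, and its transcript level serves as a mark of that tissue in a dissected piece.

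Polyadenylated RNA from the ventral hippocampus of the right hemisphere was sequenced as 1 library per mouse, from C57BL/6J mice 12 to 16 weeks old. The 4 groups were wild-type (WT) females, Angelman syndrome (AS) females, WT males and AS males, with 3 mice in each, numbered here in accession order. Angelman syndrome arises from loss of the maternal UBE3A allele, and the labels do not state the mutation of the AS mice. Values are log2(abundance + 1), from a deposited log table read as natural logs. If its base was 2, each difference below would be 0.693 times as large.

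Ube3a, the gene whose maternal copy is lost in the syndrome, did not separate the genotypes. It differed by −0.09 ± 0.09 (standard error, SE) on the log2 scale between 6 AS and 6 WT mice (limma, adjusted p = 0.976). The 5 other female libraries held Xist at 6.00 to 6.45, whereas WT female replicate 1 held it at 0.35, inside the male range of 0.17 to 0.52. Its Y-linked transcripts were at female levels, with Ddx3y at 1.02 against 4.05 to 4.35 in males, so this library stands apart from its group and results are also given without it. Camk2a, a kinase of excitatory neurons, was at 9.34 to 9.75 in every library. In bulk tissue, fewer cells of a type and less RNA per cell cannot be told apart.

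Ttr varied more than any cilium gene. It stood at 10.94, 11.71 and 6.49 in WT females, at 4.20, 11.66 and 6.17 in AS females, at 5.57, 5.61 and 3.27 in WT males, and at 3.83, 9.25 and 2.33 in AS males. Its 3 highest libraries were female, from both genotypes, and the fourth was AS male replicate 2. AS and WT libraries overlapped in each sex, and in WT mice the females lay above the males. The libraries fell into 4 with much Ttr and 8 with little, so no pooled correlation is given. Over 28 choroid plexus markers, Ttr included, the median level ran from 0.95 to 4.29 across libraries, with the same 4 libraries on top, at 3.35, 4.29, 4.02 and 2.47.

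Many motile genes varied more between mice than the Ift and Bbs genes did. The median level over the motile list ran from 1.85 to 3.18 across the 12 libraries, a span of 1.33 log2 units. That over the Ift and Bbs list ran from 3.74 to 3.92, a span of 0.18. Different genes held the motile median in different libraries, so its span is not the change of a typical motile gene. Summed abundance ran from 301.3 to 382.1 over the motile genes and from 388.3 to 421.3 over the Ift and Bbs genes. The pooled SD within groups had a median of 0.26 over the motile genes (range 0.06 to 0.84) and of 0.13 over the Ift and Bbs genes (0.04 to 0.21), beside 0.14 over all 13858 genes tested. Drc7 varied the most of the 56. Mean levels, read as per-length abundance, ran from 0.98 to 6.27 over the motile genes (median 2.40). They ran from 1.76 to 5.72 over the Ift and Bbs genes (median 3.85). The motile genes were thus mostly lower, and the part of level in the spread was not tested.

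Promoters of the members held a known ciliary motif in a larger share than promoters at large, a difference that was not tested. RFX factors, which regulate ciliary genes, bind the X-box, a pair of inverted half-sites. An X-box was searched as the half-site GTTNC followed 4 bases later by GNAAC, with N any base, a form that matches on both strands at once. The base at N was free in each arm, so the second arm need not be the exact reverse complement of the first. Promoters of 300 bases (250 before and 50 after the start) were taken from RefSeq on GRCm38.p6. There 45 of the 56 members had an entry, and Foxj1, Rsph1 and Cfap65 were among those without one. A gene was counted if any of its promoters held the motif. Of the 45, 5 (11.1%) held the X-box form, against 322 of all 27025 genes with an entry, expressed here or not (1.19%). By class the counts were 4 of 26 motile genes and 1 of 19 Ift and Bbs genes. The 5 are shown because they are all the members with the form, a choice made after the values were seen, with the X-box in capitals and the gene's sense strand read 5′ to 3′.

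Cfap45: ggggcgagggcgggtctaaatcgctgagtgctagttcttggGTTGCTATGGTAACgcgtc
Cfap61: gccgcgtcGTTTCCTTAGCAACtgtgtgcg
Cfap44: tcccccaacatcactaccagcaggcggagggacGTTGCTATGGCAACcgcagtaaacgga
Cfap298: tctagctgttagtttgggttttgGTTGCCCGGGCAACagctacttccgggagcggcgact
Bbs7: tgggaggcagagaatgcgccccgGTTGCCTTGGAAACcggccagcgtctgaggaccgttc

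These windows lie on GRCm38.p6 at chr1:172521070-172521129 (Cfap45, plus strand), chr2:145934768-145934797 (Cfap61, plus), chr16:44394739-44394798 (Cfap44, plus), chr16:90935001-90935060 (Cfap298, minus) and chr3:36613474-36613533 (Bbs7, minus). The X-box began 19, 8, 27, 188 and 121 bases before the RefSeq start of Cfap45, Cfap61, Cfap44, Cfap298 and Bbs7. GENCODE gene starts can differ from these. The windows of Cfap45 and Cfap298 lie inside the GENCODE genes, which begin at 172520801 (plus strand) and 90935114 (minus strand). The single half-site GTTGCC on either strand, which an X-box may contain, occurred in 17 of 45 members (37.8%) and in 14.1% of all genes with an entry. The forkhead core TGTTTAC on either strand, the class of site that FOXJ1 binds, occurred in 2 of 45 members (4.44%) and in 4.05% of all genes with an entry. A match describes the letters only.

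Foxj1 and a subset of motile genes were high in the libraries with much Ttr, without passing the test, and the Ift and Bbs genes showed no such slope. The difference between the classes was itself not tested. The relation was fitted in limma as a slope on the Ttr level with group terms, in log2 units of the gene per log2 unit of Ttr. After adjustment over all 13857 genes tested, 0 of 56 members passed 0.05, in a fit that called 16 genes (0.115%). At an unadjusted p under 0.05 there were 8 members with a positive slope (background 5.08% of genes) and 0 with a negative one (6.73%), with 11.8% of genes in either direction. The 8 were Foxj1 and 7 of the 33 motile genes, namely Drc7, Cfap52, Cfap65, Rsph1, Cfap126, Cfap44 and Tekt1. Of the 22 Ift and Bbs genes, 0 did so. The motile genes' median slope was 0.015, that of the Ift and Bbs genes 0.003, and that of all genes −0.004.

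**Figure D1:**
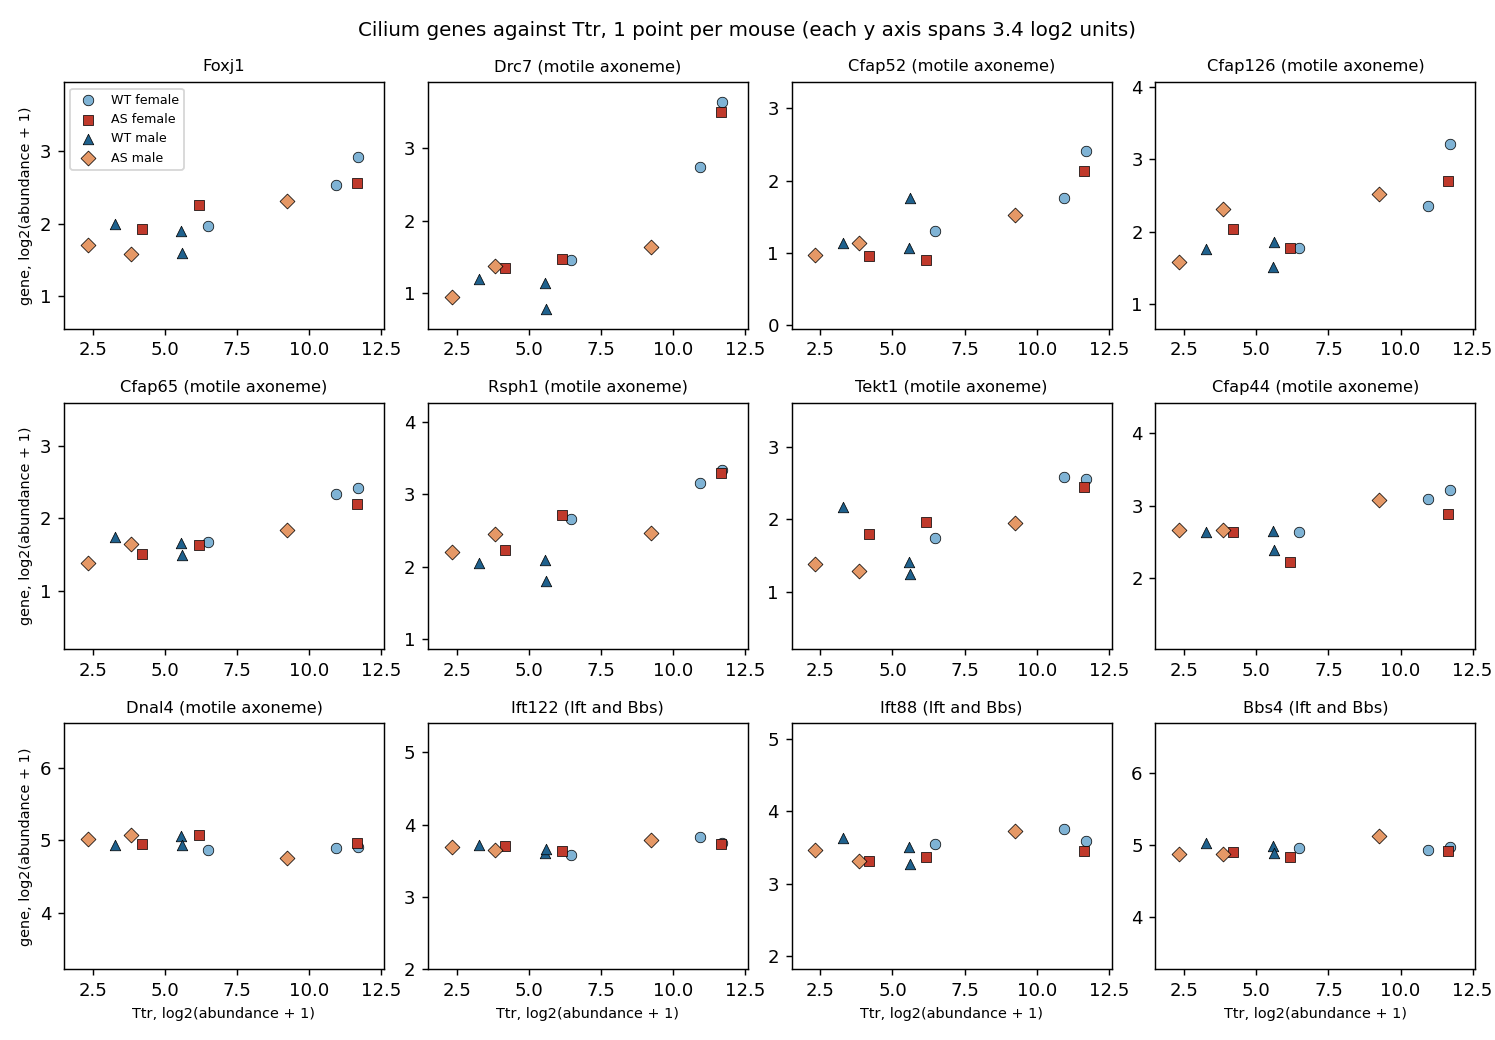
Level of 12 cilium genes against Ttr, both as log2(abundance + 1), with 1 point per mouse and the group shown by colour and shape; every y axis spans the same width. Foxj1 and the 7 motile genes in the upper panels were high in the WT female and AS female libraries at the right, while Dnal4, Ift122, Ift88 and Bbs4 stayed near 1 level.

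Foxj1 (chr11:116330704-116335399, minus strand, GRCm38) was measured at 2.53, 2.92 and 1.96 in WT females, at 1.92, 2.56 and 2.26 in AS females, at 1.90, 1.59 and 2.00 in WT males, and at 1.58, 2.32 and 1.70 in AS males. Its 4 highest libraries were the 4 with the most Ttr. From the lowest to the highest library, abundance + 1 differed 2.53-fold. Its slope was 0.096 ± 0.025 (SE, limma, adjusted p = 0.198).

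Drc7 (chr8:95055103-95078141, plus strand) encodes a subunit of the nexin-dynein regulatory complex, which links neighbouring doublets and tunes the dyneins. It stood at 2.74, 3.64 and 1.46 in WT females, at 1.34, 3.50 and 1.48 in AS females, at 1.14, 0.78 and 1.19 in WT males, and at 1.37, 1.64 and 0.94 in AS males. The 3 female libraries with the most Ttr stood clear of the other 9, of which AS male replicate 2 was the highest. Abundance + 1 spanned 7.27-fold, and the slope of 0.225 ± 0.050 was the largest of the 56 (limma, adjusted p = 0.144). Among other subunits of the complex, Drc1 had a slope of −0.002 ± 0.020 and Drc3 one of 0.026 ± 0.016.

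Rsph1 (chr17:31255019-31277383, minus strand), a protein of the radial spoke head, was at 3.16, 3.33 and 2.65 in WT females, at 2.23, 3.30 and 2.72 in AS females, at 2.10, 1.80 and 2.06 in WT males, and at 2.45, 2.46 and 2.20 in AS males. It was highest in the same 3 female libraries, with a slope of 0.087 ± 0.023 (limma, adjusted p = 0.217). Rsph4a, another spoke head protein, was also highest in those 3, but its slope of 0.040 ± 0.027 had an adjusted p of 0.589 in limma. Rsph9 and Rsph10b had slopes of 0.011 ± 0.026 and 0.023 ± 0.030. Rsph3a and Rsph3b are near-identical copies between which reads may be split, and their slopes were 0.004 and 0.002.

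Cfap52 (chr11:67924806-67965651, minus strand), a protein of the inner wall of the doublet microtubules, was at 1.76, 2.40 and 1.30 in WT females, at 0.96, 2.13 and 0.91 in AS females, at 1.07, 1.76 and 1.13 in WT males, and at 1.14, 1.52 and 0.98 in AS males. WT male replicate 2 was level with WT female replicate 1 although its Ttr was low. The slope was 0.137 ± 0.032 (limma, adjusted p = 0.174). Tekt1 (chr11:72344722-72362442, minus strand), a filament protein of the doublet, was at 2.58, 2.56 and 1.74 in WT females, at 1.80, 2.44 and 1.96 in AS females, at 1.41, 1.24 and 2.17 in WT males, and at 1.29, 1.95 and 1.38 in AS males. WT male replicate 3 exceeded AS male replicate 2 in Tekt1 with far less Ttr, and the slope was 0.085 ± 0.036 (limma, adjusted p = 0.392). Tekt5, the other tektin in the table, had a slope of −0.045 ± 0.025, the lowest of the 56.

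The remaining Cfap genes among the 8 were picked out after their values were seen. Cfap126 (Flattop, a protein at the base of motile cilia) had a slope of 0.126 ± 0.035, Cfap65 one of 0.085 ± 0.021, and Cfap44, a partner of the inner dynein arms, one of 0.063 ± 0.021. Their adjusted p values in limma were 0.227, 0.186 and 0.306. Among the other 26 motile genes, slopes ran from −0.045 to 0.072, with 95% intervals that reached from −0.135 to 0.157, so slopes as large as those of Rsph1 or Tekt1 lay within the widest of these intervals. The dynein with the smallest p was Dnal4, a dynein light chain, at −0.013 ± 0.011 (limma, adjusted p = 0.673). Dnah9, an outer arm heavy chain, had a slope of 0.010 ± 0.029.

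**Figure D2:**
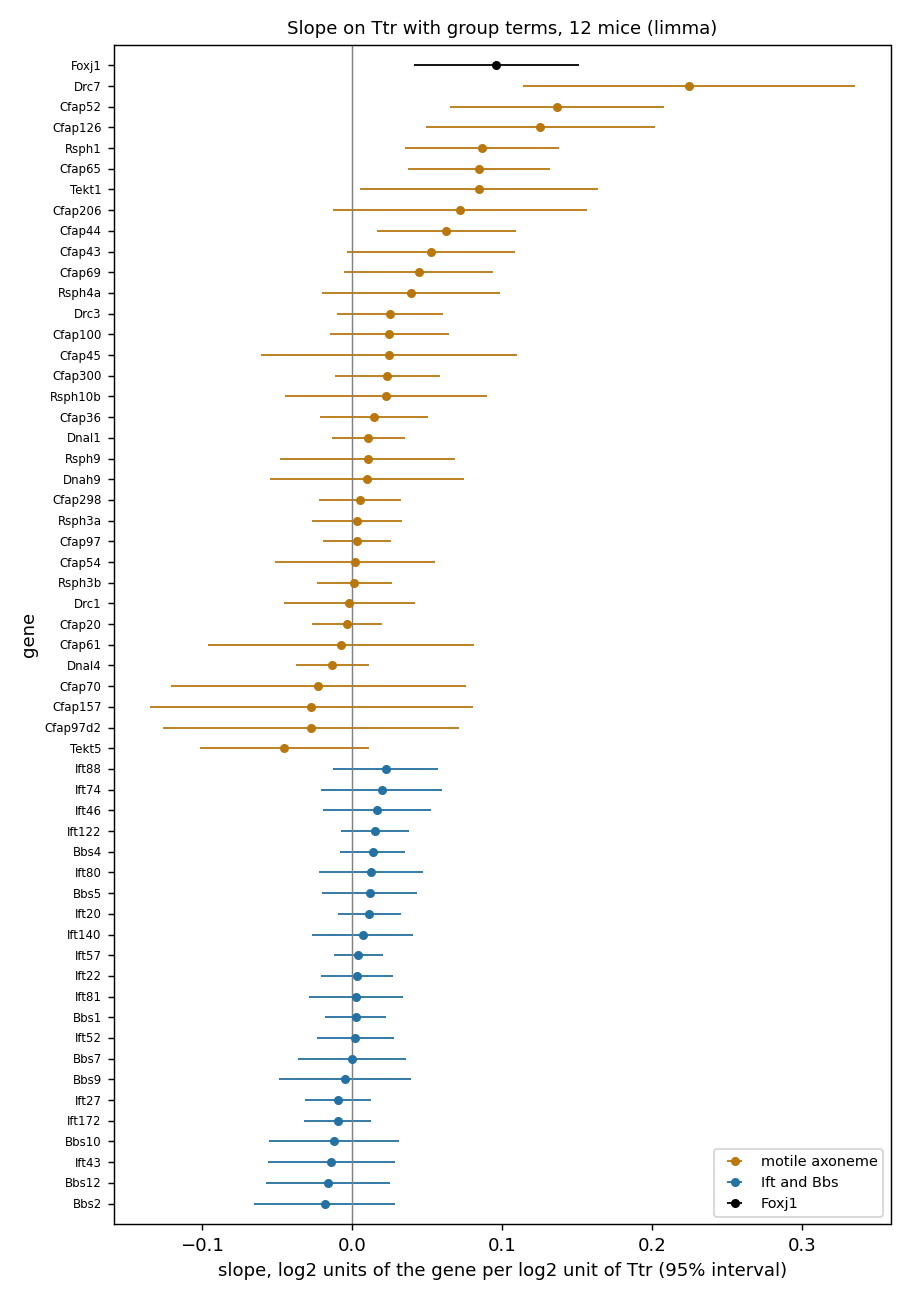
Slope of each of the 56 cilium genes on the Ttr level (x axis, log2 units per log2 unit of Ttr) from limma with group terms, with 95% intervals; colour gives the class. Foxj1 and 7 motile genes have intervals above 0, and the intervals of all 22 Ift and Bbs genes contain 0 and lie between −0.065 and 0.060.

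The slopes of the Ift and Bbs genes lay near 0 with narrow intervals. They ran from −0.018 to 0.023, and the 95% intervals of all 22 lay between −0.065 and 0.060, below the estimates for each of the 8 genes. Ift122 (chr6:115853470-115926699, plus strand), of the retrograde transport complex, had the smallest p of its family, with a slope of 0.016 ± 0.010 (limma, adjusted p = 0.575). Its values were 3.83, 3.74 and 3.57 in WT females, 3.70, 3.74 and 3.63 in AS females, 3.61, 3.67 and 3.72 in WT males, and 3.65, 3.78 and 3.69 in AS males. Abundance + 1 of Ift122 therefore spanned 1.19-fold, and the groups overlapped. As for Foxj1, its 4 highest libraries were the 4 with the most Ttr, though they lay close to the rest. Bbs4 (chr9:59321990-59353508, minus strand), a BBSome subunit, had a slope of 0.014 ± 0.010 (limma, adjusted p = 0.601) and values of 4.84 to 5.13 in all 12 libraries.

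The 3 libraries highest in Ttr were also the 3 highest for 10 of 56 members, against 280 of 13857 genes (2.02%). The 10 were Foxj1, Drc7, Rsph1, Rsph4a, Tekt1, Cfap43, Cfap52, Cfap65, Cfap206 and Cfap298. They include 9 of 33 motile genes and 0 of 22 Ift and Bbs genes. The same held for 26 of 27 choroid plexus markers, for 10 of 40 further motile cilium genes and for 2 of 63 further primary cilium genes.

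How many members passed depended on how the slope was fitted. Without group terms, 6 members passed in limma, among 185 genes (1.34%): Drc7 with 0.259 (adjusted p = 0.003), Foxj1 with 0.111 (0.008), Cfap65 with 0.092 (0.009), Rsph1 with 0.127 (0.019), Cfap52 with 0.126 (0.021) and Cfap126 with 0.121 (0.043). With the mean of the choroid plexus markers in place of Ttr, 3 passed among 109 genes (0.787%), namely Drc7, Cfap52 and Cfap65, with adjusted p values of 1.35e-04, 0.043 and 0.047. The markers in that mean were themselves tested against it, which can add to the 109 and lower the adjusted p of other genes. Whether Cfap52 and Cfap65 would pass without the markers was not tested. With library quality weights, 2 passed among 75 genes (0.541%), Drc7 (0.029) and Rsph1 (0.041). In each of these 3 fits, 0 of 22 Ift and Bbs genes had an unadjusted p under 0.05. Without WT female replicate 1, 0 members passed and 7 had an unadjusted p under 0.05, against 8 with all libraries. The share of all genes at that p without this library is not given here. In that fit the slopes of Foxj1 and Drc7 were 0.098 and 0.229.

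Whether the slopes held without the 4 libraries with the most Ttr could not be decided, because the errors grew. The other 8 libraries, whose Ttr ran from 2.33 to 6.49, include only 1 WT female, so slopes alone are given for them. There the slope was −0.02 ± 0.08 for Foxj1, 0.01 ± 0.10 for Drc7, 0.07 ± 0.08 for Rsph1 and 0.08 ± 0.11 for Cfap52. With all 12 libraries these errors were 0.025, 0.050, 0.023 and 0.032.

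Ciliary genes outside the symbol rule were read from fixed lists. Of 39 further motile cilium genes tested, 0 passed, and their median slope was 0.025. At an unadjusted p under 0.05, 9 had a positive and 1 a negative slope, against 5.08% and 6.73% of all genes. The smallest p values belonged to Spag16, a central pair protein, with 0.115 ± 0.031, to Wdr78, a dynein intermediate chain, with 0.074 ± 0.020, and to Pifo with 0.160 ± 0.044 (limma, adjusted p of 0.220, 0.226 and 0.230). Of 11 regulators of multiciliated cells, Foxj1 among them, 0 passed and 3 had a positive slope at an unadjusted p under 0.05, the others being Rfx3 (0.041 ± 0.017) and E2f5 (0.029 ± 0.013). These genes were picked after their values were seen.

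Of 63 further genes of the primary cilium, 0 passed in limma, with a median slope of 0.002. At an unadjusted p under 0.05, 3 had a positive and 5 a negative slope, shares near the 5.08% and 6.73% of all genes. Positive slopes belonged to Wdr19, of the retrograde transport complex, at 0.034 ± 0.012, to Cep83 at 0.034 ± 0.013 and to Rpgrip1l, of the transition zone, at 0.035 ± 0.014. Negative slopes belonged to B9d2, of the transition zone, at −0.049 ± 0.013, to Mchr1, a receptor of neuronal cilia, at −0.050 ± 0.016, to Kif17, a kinesin, at −0.046 ± 0.015, to Adcy3, the adenylate cyclase of neuronal cilia, at −0.029 ± 0.011, and to Inpp5e, a phosphatase of the ciliary membrane, at −0.038 ± 0.016. The adjusted p values of these 8 ran from 0.217 to 0.389, and they too were picked after their values were seen.

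Markers of the choroid plexus and of ependyma followed the Ttr level to different degrees. All 27 choroid plexus markers tested had a positive slope at an unadjusted p under 0.05 and 9 passed, led by Clic6, Kcnj13, Enpp2 and Kcne2, with slopes of 0.504, 0.558, 0.476 and 0.513. Of 21 ependymal markers, 1 passed, Calml4, which is also on the choroid plexus list, and 5 had a positive and 1 a negative slope at an unadjusted p under 0.05. Over all genes tested, 0.115% passed, and 5.08% had a positive and 6.73% a negative slope at that unadjusted p. The ependymal list also shares genes with the further motile list, Ak7, Dynlrb2, Meig1 and Pifo among them. Dynlrb2 and Pifo thus count among the positive slopes of both lists. The summed abundance of the choroid plexus list was 966.0 to 4915 in the 4 libraries with the most Ttr and 118.3 to 236.4 in the other 8. The summed ependymal list was 235.1 to 259.7 in those 4 and 170.7 to 230.3 in the other 8. Without Calml4 these ranges were 211.3 to 227.3 and 169.6 to 226.0, which overlapped. The median level of the ependymal list, Calml4 included, was 2.66 to 2.96 in those 4 libraries and 1.70 to 2.55 in the other 8, without overlap. The part of either cell type in the slopes of the cilium genes was not tested.

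Between the sexes, the cilium genes with the smallest p values were lower in males. Of the 56 members, 0 passed in limma, in a fit that called 5 genes (0.0361%), and 12 were lower and 0 higher in males at an unadjusted p under 0.05, against 3.02% and 3.9% of all genes (6.91% in either direction). The 12 comprised 9 motile genes, 2 Ift and Bbs genes (Ift57 and Ift52) and Foxj1. The libraries of the sexes did not overlap for 0 of 56 members, against 0.296% of genes.

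Rsph1 had the smallest p, at 0.72 ± 0.17 log2 units lower in males (limma, adjusted p = 0.518). Its female libraries ran from 2.23 to 3.33 and its male libraries from 1.80 to 2.46. Rsph4a was measured at 2.31, 2.49 and 2.05 in WT females, at 1.98, 2.36 and 2.00 in AS females, at 1.66, 1.18 and 1.99 in WT males, and at 1.89, 2.07 and 1.77 in AS males, a difference of −0.44 ± 0.14 (adjusted p = 0.675). Rsph3a differed by −0.20 ± 0.07 (0.675), Drc7 by −1.18 ± 0.41 (0.693) and Foxj1 by −0.51 ± 0.19 (0.695). Female and male libraries overlapped in each of these 5 genes.

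Sex and Ttr moved together, since 3 of the 4 libraries with the most Ttr were female. With the Ttr level as a covariate in limma, 1 of 56 members was lower in males at an unadjusted p under 0.05 and 0 were higher, against 5.69% of genes in either direction. That gene was Rsph1, at −0.41 ± 0.14 (adjusted p = 0.845), while Drc7 was at −0.39 ± 0.31. Leaving out the 4 libraries with the most Ttr kept only 1 WT female library. Rsph1 then differed by −0.41 ± 0.15 and Drc7 by −0.34 ± 0.18. Without WT female replicate 1, 9 members had an unadjusted p under 0.05, against 12 with all libraries, and Rsph1 differed by −0.69 ± 0.19. The share of all genes at that p without this library is not given here.

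**Figure D3:**
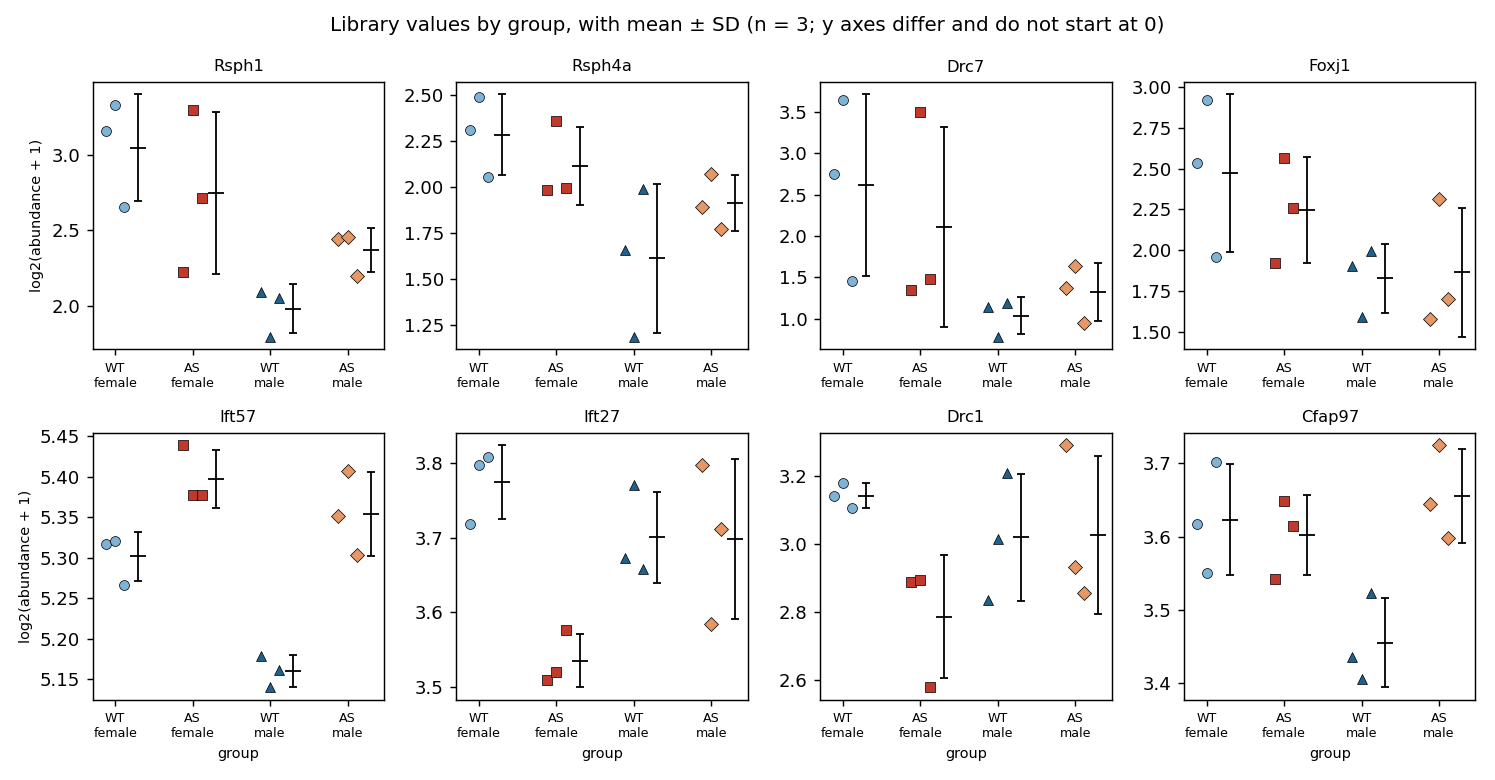
Library values of 8 cilium genes as log2(abundance + 1) by group, with the mean ± SD of 3 mice beside the points; y axes differ and do not start at 0. Rsph1, Rsph4a, Drc7 and Foxj1 spread widely among the females, and Ift57 is higher in AS than in WT mice of each sex without overlap.

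No cilium gene passed between the genotypes. In females, 0 of 56 members passed in limma (0.0% of all genes did) and 2 had an unadjusted p under 0.05, both lower in AS, against 3.16% of genes (1.67% lower and 1.49% higher). Ift27 (chr15:78159463-78174107, minus strand), a small GTPase of the anterograde transport complex, was at 3.72, 3.80 and 3.81 in WT females and at 3.51, 3.52 and 3.58 in AS females, without overlap. It differed by −0.24 ± 0.07 (limma, adjusted p = 1.0). Drc1 (chr5:30281388-30366695, plus strand), of the nexin-dynein regulatory complex, was at 3.14, 3.18 and 3.11 in WT and at 2.89, 2.89 and 2.58 in AS females. It differed by −0.36 ± 0.14 (limma, adjusted p = 1.0), also without overlap. Cfap69 at −0.39 ± 0.18 and Ift88, of the anterograde complex, at −0.26 ± 0.12 came next. Of the 56, 40 had estimates below 0, against 6701 of 13858 genes, with a median of −0.07 (0.005 over all genes), and 7 did not overlap between genotypes (12.5%, against 9.01% of all genes). All 28 choroid plexus markers, Ttr included, also had lower estimates in AS females, and their part in the cilium genes was not tested.

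In males, 0 of 56 members passed in limma (0.0% of genes did), and 3 were higher and 1 lower in AS at an unadjusted p under 0.05, against 3.21% of genes higher, 3.21% lower and 6.42% in either direction. Ift57 (chr16:49699233-49765126, plus strand), an adaptor of the anterograde complex, was at 5.18, 5.14 and 5.16 in WT males and at 5.35, 5.41 and 5.30 in AS males, a difference of 0.19 ± 0.05 (limma, adjusted p = 0.748). Cfap97 was at 3.44, 3.41 and 3.52 in WT and at 3.64, 3.73 and 3.60 in AS males, a difference of 0.20 ± 0.07 (0.748). Neither gene overlapped between the genotypes. Cfap100, of the inner dynein arms, differed by −0.32 ± 0.13 and Rsph9, of the spoke head, by 0.41 ± 0.18, each with an adjusted p of 0.763. Single libraries moved both: Rsph9 differed by 0.15 without WT male replicate 2, the lowest library at 3.58, and Cfap100 by −0.19 without AS male replicate 3, the lowest at 2.09. In all, 38 of 56 had estimates above 0 in AS males, with a median of 0.04, against 52.4% and 0.008 over all genes, and 7 did not overlap (12.5%, against 11.2% of genes). All 6 Rsph genes were among the 38. Choroid plexus markers had estimates above 0 in 27 of 28, with a median of 0.38, and ependymal markers in 18 of 21, with a median of 0.17, and their part in the cilium genes was not tested.

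Over both sexes, 0 of 56 members passed in limma (0.0% of genes did), and 3 had an unadjusted p under 0.05, 1 higher and 2 lower in AS, against 5.35% of genes (2.77% higher, 2.58% lower). All 3 were Ift genes. Ift57 was 0.14 ± 0.04 higher in AS (limma, adjusted p = 0.661), with females at 5.32, 5.32 and 5.27 in WT and at 5.44, 5.38 and 5.38 in AS. Its 3 AS libraries lay above its 3 WT libraries in each sex, while AS males and WT females overlapped. Its adjusted p ran from 0.486 to 0.999 when single libraries were left out, and the estimate from 0.13 to 0.16. Ift27 differed by −0.12 ± 0.05 and Ift172, of the anterograde complex, by −0.12 ± 0.05, followed by Ift52 at 0.12 ± 0.06. Over all 12 libraries, 0 of 56 members separated the genotypes, against 0.361% of genes. Without WT female replicate 1, 0 members passed in females, over both sexes or in the interaction described next. In these, 2, 4 and 2 had an unadjusted p under 0.05 in limma, against 2, 3 and 3 with all libraries. The share of all genes at that p without this library is not given here. Ift27 then differed by −0.27 ± 0.08 in females and Ift57 by 0.15 ± 0.04 over both sexes.

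Whether the genotype difference depended on sex was tested as an interaction, the male minus the female difference. In limma, 0 of 56 members passed (0.0% of genes did), and 3 had an unadjusted p under 0.05, all above 0, against 3.77% of genes (1.76% above and 2.01% below 0). These were Ift27 at 0.24 ± 0.10, Cfap44 at 0.64 ± 0.28 and Cfap97 at 0.22 ± 0.10, each with an adjusted p of 0.987. Cfap44 stood at 3.09, 3.22 and 2.64 in WT females, at 2.64, 2.89 and 2.22 in AS females, at 2.65, 2.39 and 2.64 in WT males, and at 2.66, 3.08 and 2.67 in AS males. Its AS libraries thus lay above the WT libraries in males, and overlapped them in females. Estimates were above 0 for 45 of 56 members, with a median of 0.15, against 50.5% and 0.002 over all genes. Choroid plexus markers had the same sign in 27 of 28, with a median of 1.23, and their part in the cilium genes was not tested.

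Foxj1 differed between the genotypes by less than its error. The difference was −0.22 ± 0.26 between AS and WT females, 0.04 ± 0.26 between males and −0.09 ± 0.19 over both sexes, with 95% intervals of −0.80 to 0.35, −0.54 to 0.61 and −0.50 to 0.315. With the Ttr level as a covariate, the differences in females and over both sexes were 0.0042 and 0.0045.

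**Figure D4:**
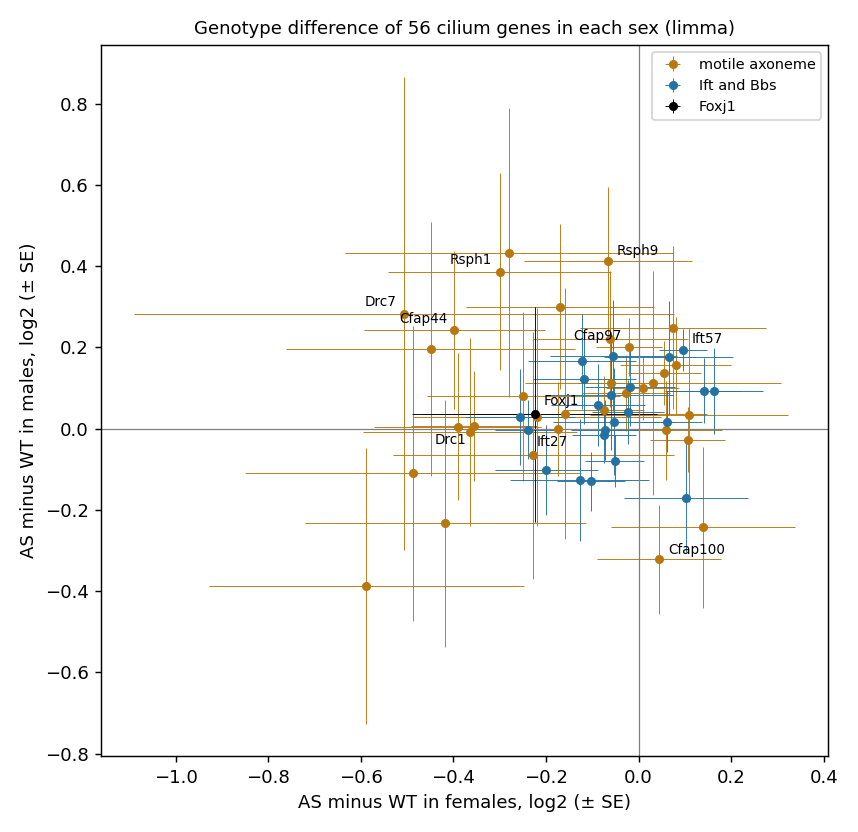
AS minus WT difference of the 56 cilium genes in females (x axis) and males (y axis), log2 units with standard errors from limma; colour gives the class and the names mark genes described here. Of 33 motile genes, 23 lie below 0 in females and 23 above 0 in males, many with large errors. Motile estimates in males run from −0.387 to 0.433. The Ift and Bbs genes lie between −0.26 and 0.19 on both axes.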

How the data were processed

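Ventral hippocampal RNA of 12 mice was measured by RNA-seq. The submitters' processing notes name Trimmomatic, Bowtie2, RSEM and GRCm38 (mm10), without versions. The deposited table holds log values, read here as natural log of RSEM abundance + 1, running from 0.100 to 10.08; base, normalization and filter are not given in the sources used here. Entries from 2 to 5 are shared exactly by every column, as after quantile normalization. It holds no counts, so depth and counting error are unknown.

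Values were divided by the natural log of 2. Genes with mean abundance under 1 were left out (93 genes, 0 cilium genes), leaving 13858. limma 3.58.1 in R 4.3.3 fitted 4 group means to all libraries with trended moderated variances (8 residual degrees of freedom, or 7 with the Ttr level added). The threshold was an adjusted p under 0.05, with Benjamini-Hochberg adjustment across the whole set of tested genes. The fits were tested on simulated data, with planted genotype differences and Ttr slopes larger than those of any cilium gene here. Power at the sizes reported was not tested. Symbols and coordinates came from GENCODE M21 on GRCm38 (13735 of 13951 identifiers) and promoters from RefSeq.

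The members and lists were chosen with earlier results of these data known. Named are Foxj1, the member with the smallest p per family for Ttr, the 4 with the smallest p per genotype or sex comparison, and up to 4 with an interaction p under 0.05. Nothing in the labels says how the mice of a group are related, so p-values measure only the spread between these samples. Alternatives were base 2 for the deposited values, no filter, a stricter filter, another pseudocount, library weights, Ttr as a covariate, the choroid plexus mean for Ttr, no group terms, and each library left out. Leaving out the 4 libraries highest in Ttr was planned for the slope and added after seeing the data for the other comparisons.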

Additional observations from a re-analysis of the deposited data

How the results depend on the processing

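The calls for cilium genes changed in 3 of the alternatives run. The number that passed for the Ttr slope was 3 with the choroid plexus mean, 2 with library weights and 6 without group terms, and 0 under every other alternative of the 6 comparisons. Over all genes, the Ttr slope called 109, 75 and 185 genes under those 3 settings, and 0 to 31 with 1 library left out. It fell to 0 without AS female replicate 1 or 2 or WT female replicate 2 or 3, and reached 31 without AS male replicate 2. With 1 library left out, all genes called numbered 0 to 1 in females, 0 to 1 in males, 0 to 2 over both sexes, 0 to 1 for the interaction and 4 to 8 between the sexes. Without the 4 libraries highest in Ttr, the counts were 5, 1, 2, 2 and 12, and a mean abundance of at least 5 left 3 between the sexes.

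Many cilium genes had Ttr slopes near 0 with all libraries, where a small change turns the sign. The share of all genes whose slope turned is not given here. Without the 4 highest libraries the Ttr slope turned sign in 30 of 56 cilium genes (16 of 33 motile, 13 of 22 Ift and Bbs, and Foxj1). Among those whose slopes are given above, it was then −0.022 for Foxj1, −0.092 for Cfap44, −0.182 for Tekt1, 0.039 for Dnal4, −0.033 for Ift122, −0.030 for Bbs4, −0.118 for Rsph4a, −0.081 for Rsph9, −0.045 for Rsph10b, −0.031 for Rsph3b and −0.032 for Dnah9. The slope also turned for Dnal4 without AS male replicate 2 (0.0035, in a range of −0.019 to 0.0035 with 1 library left out). The Foxj1 genotype difference turned in females with Ttr as a covariate (0.0042) and without the 4 libraries (0.13), where only 1 WT female library remained. In males it was −0.15 with library weights, −0.083 without WT male replicate 2, and −0.19 without AS male replicate 2 or without the 4 libraries, and single left-out libraries gave −0.19 to 0.18. Over both sexes it was 0.018 without WT female replicate 2, in a leave-one-out range of −0.22 to 0.018, and 0.0045 with the covariate, and the interaction was −0.32 without the 4 libraries. The cause was not tested. Reading the deposited values as base 2 changed no call.

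No paired analysis was possible because the labels carry no replicate numbers and the numbers used here follow accession order. The table gives no counts, so how far depth limits the low motile genes is unknown.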

Other observations

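Ciliary genes outside the symbol rule were also compared between the sexes. In limma, 0 of 39 further motile cilium genes passed, and 14 were lower and 0 higher in males at an unadjusted p under 0.05, with a median of −0.21. Of 63 further primary cilium genes, 0 passed, 2 were higher and 3 lower, with a median of 0.008. Of 21 ependymal markers, 0 passed and 6 were lower, and of 28 choroid plexus markers, 0 passed and 12 were lower. Among all genes 3.02% were lower and 3.9% higher at that unadjusted p. The lists share genes: Ak7 and Dynlrb2 count as lower in both the motile and the ependymal list, and Calml4 in both the ependymal and the choroid plexus list. Of 10 astrocyte markers and 12 hippocampal neuron markers, 0 were higher or lower at that p. The part of the choroid plexus and ependymal markers in the motile genes was not tested.

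Between the genotypes, 0 genes of these lists passed in limma. The further motile genes had a median of −0.11 in females and 0.054 in males, with 3 of 39 lower in AS females and 0 lower or higher in AS males at an unadjusted p under 0.05. The further primary cilium genes had medians of 0.0004 and 0.002, with 2 of 63 lower in AS females and 0 in AS males. Among all genes, 1.67% were lower in AS females and 3.21% in AS males at that unadjusted p.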
